A study of Mus musculus with 6 samples.

Results

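The T cell receptor variable (V) genes were taken as every gene symbol of the deposited table that begins with Trav, Trbv, Trgv or Trdv followed by a digit, which gave 178 of 56413 symbols. These were 130 Trav genes of the alpha chain, 35 Trbv genes of the beta chain, 7 Trgv genes of the gamma chain and 6 Trdv genes of the delta chain. Counts were found for 125 of them in at least 1 library (84 Trav, 30 Trbv, 7 Trgv and 4 Trdv), and the other 53 were listed at 0 in every library. By RefSeq, Trav and Trdv genes lie on chromosome 14, Trbv genes on chromosome 6 and Trgv genes on chromosome 13.

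A developing T cell builds its receptor by joining 1 V segment of each chain to a joining segment, with a diversity segment between them in beta and delta chains. The V segment gives most of the domain that meets antigen and peptide-presenting molecules, while the constant gene (Trac, Trbc1 or Trbc2 in the common alpha beta T cell) is shared by all rearrangements of a chain. RNA of a V gene in spleen therefore comes mainly from the T cells that chose it, and the share of a chain's counts that each V gene holds is called its usage here.

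The study compared Top3b-KO with wild-type (WT) mice, with 3 libraries each of freshly isolated total splenocytes, by total RNA sequencing after removal of ribosomal RNA. Top3b encodes topoisomerase III-beta, and the design text asks how it guards against tumours and disordered immunity. The labels give neither strain, sex, age nor the allele, and do not say whether libraries came from separate animals, so p-values measure the spread between these libraries. The Top3b-KO libraries held 24510385, 25473404 and 9941014 counts, and the WT libraries 15448259, 15262060 and 15860287.

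Levels are given as CPM, counts scaled to the depth of the library with edgeR's TMM factors. Top3b had 51.5, 48.2 and 49.7 CPM in Top3b-KO libraries, against 95.1, 86.9 and 91.0 CPM in WT libraries, so its RNA was reduced but not absent under the knockout label. Its log2 fold change was -0.87 (SE 0.071, adjusted p = 5.78e-06 by the quasi-likelihood F test of edgeR, adjusted by Benjamini-Hochberg over 18716 genes). The 15 T cell markers were all detected, with a summed level of 2353 to 2406 CPM in Top3b-KO libraries and 2172 to 2441 CPM in WT libraries. Marker RNA of B cells, the other main lymphocyte of spleen, summed to 3383 to 3543 CPM in Top3b-KO libraries and 3212 to 3765 CPM in WT libraries. V genes together held 4723, 5280 and 1931 counts in the Top3b-KO libraries, against 2943, 2832 and 2800 in the WT libraries, or between 0.0177% and 0.0207% of a library. At these depths 3 counts correspond to 0.119 to 0.303 CPM, which covers counting error only.

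The 8 most counted Trbv genes are shown by the last 45 bases of their GENCODE M21 transcripts, because this end is where joining takes place. Capitals mark the TGT codon of the conserved cysteine at which the most variable loop of the chain, its CDR3, begins. The bases after it are the germline start of that loop.
Trbv13-2: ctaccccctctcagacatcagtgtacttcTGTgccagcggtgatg
Trbv16: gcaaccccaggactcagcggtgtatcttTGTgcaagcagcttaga
Trbv29: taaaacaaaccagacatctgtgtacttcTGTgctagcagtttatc
Trbv2: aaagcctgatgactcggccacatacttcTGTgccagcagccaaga
Trbv13-3: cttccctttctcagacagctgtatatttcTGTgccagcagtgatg
Trbv3: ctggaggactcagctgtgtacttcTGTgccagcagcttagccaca
Trbv12-2: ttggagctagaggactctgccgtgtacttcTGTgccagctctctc
Trbv20: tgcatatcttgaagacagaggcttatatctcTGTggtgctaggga

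Trbv genes were well separated in sequence. Over the last 280 bases, compared from the 3 prime end without gaps, Trbv13-2 matched Trbv13-3 at 91.4% and Trbv13-1 at 88.2% of positions. All 30 Trbv genes with counts had some 100-base stretch found in no other gene's transcript. The alpha locus of the mouse instead holds repeated blocks, and the copies carry a d or an n in the symbol. The 3 copies below are shown over their last 70 bases because usage of a single copy and of their sum compared differently between the genotypes, and capitals mark the 5 positions at which they are not all alike.
Trav14-3: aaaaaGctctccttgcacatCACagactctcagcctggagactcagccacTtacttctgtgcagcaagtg
Trav14d-3-dv8: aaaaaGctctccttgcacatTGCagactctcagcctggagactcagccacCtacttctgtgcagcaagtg
Trav14n-3: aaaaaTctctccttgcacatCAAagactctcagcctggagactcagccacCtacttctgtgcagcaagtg

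The Trav14 copies matched each other at 96.8% to 98.2% of the last 280 bases, so reads from 1 copy can match another over long stretches. Of 83 Trav genes with counts and a GENCODE M21 sequence, 5 had no 100-base stretch of their own, whereas of 45 Trav genes listed at 0, 35 had none. Pairs of V genes with identical longest transcripts numbered 17, or 34 genes, of which 32 were listed at 0 and the rest held 4 counts in all. The sources used here do not say how reads with several matches were counted. A Trav gene at 0 is therefore listed at 0 and cannot be called silent, and values of single Trav copies are less certain than those of Trbv genes.

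**Figure D1:**
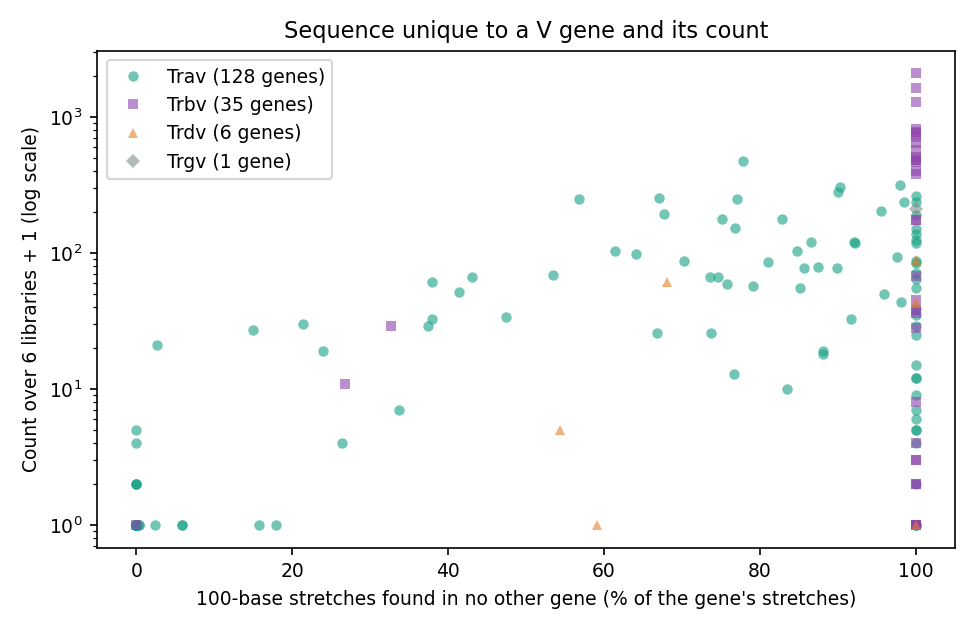
Each point is a V gene with a GENCODE M21 transcript (128 Trav, 35 Trbv, 6 Trdv and 1 Trgv), with the percentage of its 100-base stretches found in no other gene on the horizontal axis and its count over the 6 libraries plus 1 on a log scale. Genes at the left edge have no stretch of their own and sit at or near 0 counts, and most Trbv genes sit at the right edge.

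At the level of whole chains, no V sum differed between the genotypes past the threshold of adjusted p 0.05. The summed Trbv counts were 118, 132 and 116 CPM in Top3b-KO libraries, against 121, 109 and 108 CPM in WT libraries. The groups overlapped, with Top3b-KO replicate 2 highest, and the log2 fold change was 0.11 (SE 0.072, adjusted p = 0.912 by edgeR). Trav sums were 67.3, 71.3 and 72.9 CPM in Top3b-KO libraries, against 63.1, 69.2 and 62.3 CPM in WT libraries. WT replicate 2 lay inside the Top3b-KO range, and the log2 fold change was 0.12 (SE 0.073, adjusted p = 0.912 by edgeR).

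Trgv and Trdv sums were far smaller. Trgv genes summed to 5.81, 5.00 and 3.52 CPM in Top3b-KO libraries, against 2.90, 5.70 and 4.68 CPM in WT libraries (log2 fold change 0.16, SE 0.225, adjusted p = 0.968 by edgeR). Trdv genes summed to 1.84, 1.35 and 2.21 CPM in Top3b-KO libraries, against 2.32, 1.77 and 1.96 CPM in WT libraries (log2 fold change -0.22, SE 0.254, adjusted p = 0.959 by edgeR). Both pairs of groups overlapped. In bulk RNA, fewer T cells and less receptor RNA per T cell cannot be told apart.

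**Figure D2:**
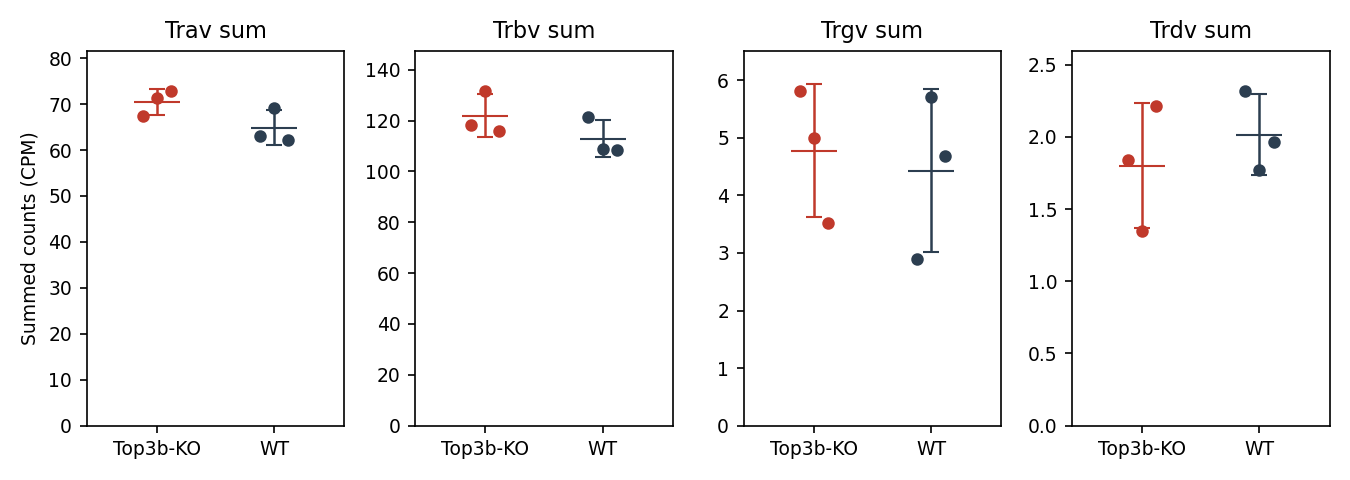
Summed V gene counts of each chain in CPM, with a panel per chain and its own axis from 0. Points are the 3 Top3b-KO libraries (left) and the 3 WT libraries (right), and bars give the mean and SD. The groups overlap in all 4 panels.

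The constant genes gave the size of the same chains by a part that every rearrangement shares. Trac had 137, 134 and 134 CPM in Top3b-KO libraries, against 116, 110 and 138 CPM in WT libraries (log2 fold change 0.15, SE 0.077, adjusted p = 0.915 by edgeR). Trbc1 had a log2 fold change of -0.02 and Trbc2 of -0.01. Trbv counts per Trbc count were 0.536, 0.577 and 0.532 in Top3b-KO libraries, against 0.527, 0.493 and 0.480 in WT libraries. The groups did not overlap, with WT replicate 1 just below Top3b-KO replicate 3. The two-sided exact permutation p was 0.1, the smallest that 3 against 3 libraries allow (0.8 after adjustment over the 8 ratios compared). Trav counts per Trac count overlapped, at 0.492, 0.530 and 0.547 in Top3b-KO libraries and 0.546, 0.628 and 0.448 in WT libraries.

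Beta chain usage was led by a few genes in every library. Trbv13-2, Trbv16 and Trbv29 together held 38.4% to 41.3% of Trbv counts, and the 8 most counted genes 66.5% to 71.0%. These are shares of counts, not corrected for length. Per kilobase of the GENCODE M21 transcript the first 3 places were the same, at 57.5 CPM per kilobase for Trbv13-2, 38.1 for Trbv16 and 33.4 for Trbv29. Below them the order changed with length. Trbv20 moved from place 8 to place 5, at 17.9, and Trbv2 from place 4 to place 8, at 13.7.

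Trbv13-2 held 16.1%, 16.02% and 15.8% of Trbv counts in Top3b-KO libraries, against 17.6%, 16.4% and 18.1% in WT libraries. Every Top3b-KO library was below every WT library, by 1.39 percentage points on average, with the means at 15.99% ± 0.149 and 17.4% ± 0.864 (SD, n = 3 each). The exact permutation p was 0.1, and 0.5 after adjustment over the 10 shares tested. Its level in CPM did not separate, at 19.1, 21.1 and 18.4 CPM in Top3b-KO libraries and 21.4, 17.9 and 19.5 CPM in WT libraries (log2 fold change 0.00, SE 0.104, adjusted p = 0.999 by edgeR). The 3 genes of the Trbv13 family together held 26.3% ± 0.981 of Trbv counts in Top3b-KO libraries and 26.7% ± 0.069 in WT libraries (SD, n = 3 each), with the groups overlapping.

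Trbv16 held 11.1%, 13.7% and 13.0% of Trbv counts in Top3b-KO libraries, against 13.4%, 14.3% and 12.04% in WT libraries. Trbv29 held 11.7%, 9.70% and 9.65% in Top3b-KO libraries, against 10.4%, 9.51% and 9.18% in WT libraries. Both overlapped between the genotypes. RefSeq calls Trbv29 a pseudogene and GENCODE M21 does not, and here it was among the 3 most counted Trbv genes, with 1281 counts.

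Trbv2, the fourth by counts not corrected for length, held 6.85%, 6.38% and 7.22% of Trbv counts in Top3b-KO libraries, against 7.06%, 6.32% and 5.14% in WT libraries. Trbv13-3 held 6.81%, 6.41% and 5.65% in Top3b-KO libraries, against 5.79%, 6.08% and 4.97% in WT libraries. For both, WT replicate 3 was the lowest of all libraries and the groups overlapped. The neighbours Trbv2, Trbv13-3, Trbv3, Trbv12-2 and Trbv20 lay between 4.51% and 7.23% in every library. By share of counts, Trbv2, Trbv13-3 and Trbv12-2 were above Trbv20 in 6 of 6 libraries, and the order of the other neighbours changed between libraries. Per kilobase, Trbv20 was instead above Trbv12-2 and Trbv2, at 17.9 against 17.1 and 13.7 CPM per kilobase, and still below Trbv13-3 at 20.6.

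**Figure D3:**
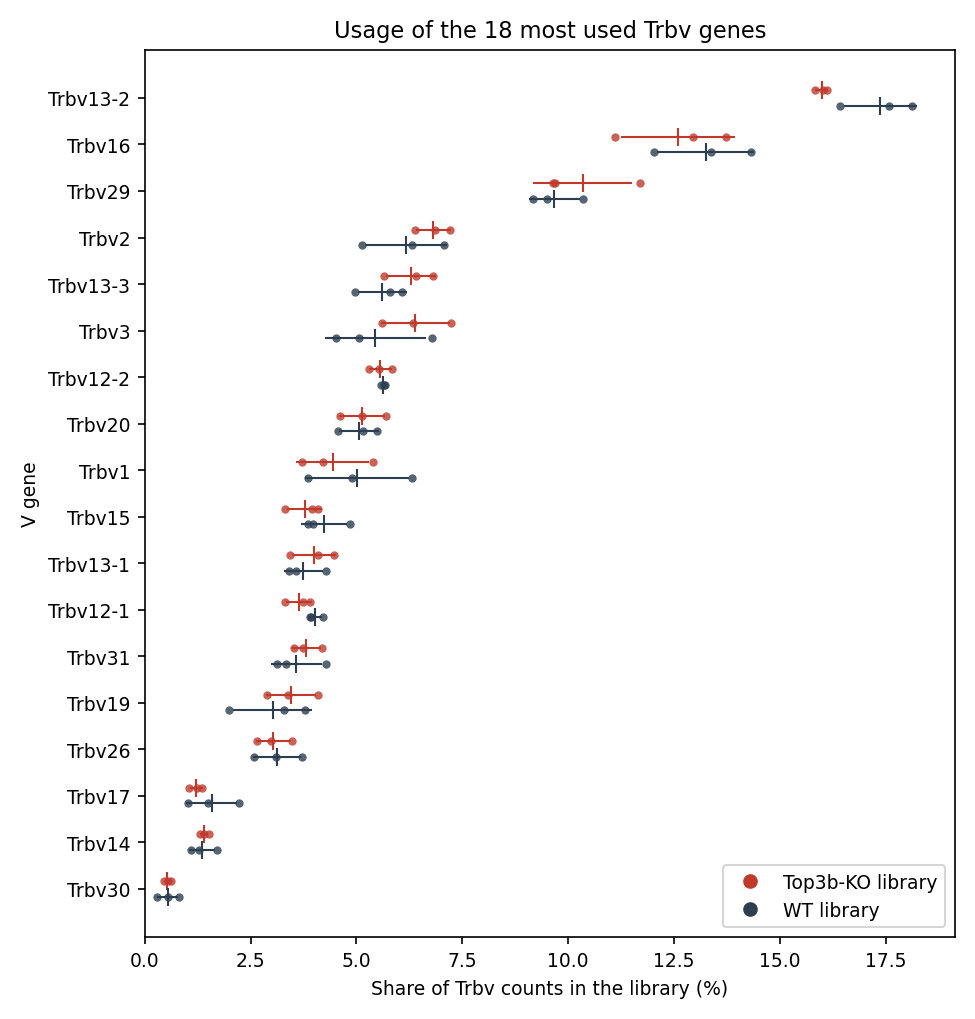
Share of Trbv counts, in percent, of the 18 most used Trbv genes. Points are libraries, with Top3b-KO above WT in each row, and ticks and bars give the mean and SD over 3 libraries. Trbv13-2 is the most used gene in every library, and its 3 Top3b-KO points (15.8% to 16.1%) lie below its 3 WT points (16.4% to 18.1%).

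Alpha chain usage was spread more evenly. Trav4-4-dv10, a segment whose symbol marks that it can serve alpha and delta chains, held the largest share, at 6.32%, 6.00% and 7.73% of Trav counts in Top3b-KO libraries and 5.72%, 6.91% and 8.03% in WT libraries. It was the only single Trav gene above 5% on average over the 6 libraries, and its groups overlapped. With d and n copies summed, the Trav14-3 copies led at 10.1% on average, then the Trav16 copies at 7.32% and the Trav4-4 copies at 6.79%. The Trav7-4 and Trav13-1 copies, at 5.99% and 5.47%, were then also above 5%. The 10 most counted Trav genes held 38.3% to 42.6% of Trav counts in a library. Their summed share overlapped between genotypes, with Top3b-KO minus WT at -1.41 percentage points (exact permutation p = 0.4). That of the top 5 overlapped too, at -0.32 points (exact permutation p = 0.9). The p-values of summed top shares were not adjusted for the set sizes compared. The 20 with the highest mean share held 60.2%, 60.5% and 61.2% in Top3b-KO libraries, against 65.7%, 64.9% and 63.7% in WT libraries, without overlap (exact permutation p = 0.1), a difference of -4.10 percentage points. Ranked by total count instead, which replaces Trav8n-2 by Trav8d-2, the difference was -2.87 points, or -2.43 with a tie at the last place taken the other way, still without overlap.

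Among the Trav14 copies, Trav14d-3-dv8 held 4.92%, 4.45% and 4.83% of Trav counts in Top3b-KO libraries, against 3.88%, 4.17% and 3.86% in WT libraries. Every Top3b-KO library was above every WT library (exact permutation p = 0.1, adjusted p = 0.5 over the 10 shares). Trav14n-3 instead held 2.37%, 2.95% and 4.42% in Top3b-KO libraries, against 4.49%, 5.21% and 2.44% in WT libraries, which overlapped widely. Summed over the 3 copies whose ends are printed above, the share was 9.89% ± 0.898 in Top3b-KO libraries and 10.4% ± 2.23 in WT libraries (SD, n = 3 each), with overlap, so the separation seen for Trav14d-3-dv8 was not present in the sum. The log2 fold change of the summed counts was 0.02 (SE 0.18).

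Trav10 held 2.13%, 2.50% and 2.62% of Trav counts in Top3b-KO libraries, against 2.96%, 2.94% and 3.56% in WT libraries, below WT without overlap. Trav16 held 2.55%, 2.72% and 2.62% in Top3b-KO libraries, against 2.25%, 2.37% and 2.13% in WT libraries, above WT without overlap. Summed with their d and n copies both overlapped. The Trav10 copies held 3.71%, 4.45% and 4.83% in Top3b-KO libraries, against 5.11%, 4.45% and 5.18% in WT libraries. The Trav16 copies held 6.75%, 8.34% and 7.73% in Top3b-KO libraries, against 7.05%, 6.53% and 7.52% in WT libraries. Of the tested Trav genes, the shares of 5 of 37 (13.5%) did not overlap, 3 above WT (Trav13n-1, Trav14d-3-dv8 and Trav16) and 2 below (Trav10 and Trav9-2). Some sums over copies did not overlap either. The Trav5-4 copies lay above WT, at 1.30% ± 0.325 in Top3b-KO libraries and 0.692% ± 0.173 in WT libraries (SD, n = 3 each). Trav23, with 4 counts in all, also lay above. The Trav9-2 copies (1.48% against 1.93% in WT) and Trav7-1 (0.563% against 0.965% in WT) lay below. Among tested Trbv genes the shares of 2 of 18 (11.1%) did not overlap, both below WT (Trbv12-1 and Trbv13-2). For comparison, CPM did not overlap between the genotypes for 11.0% of all 18716 tested genes.

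**Figure D4:**
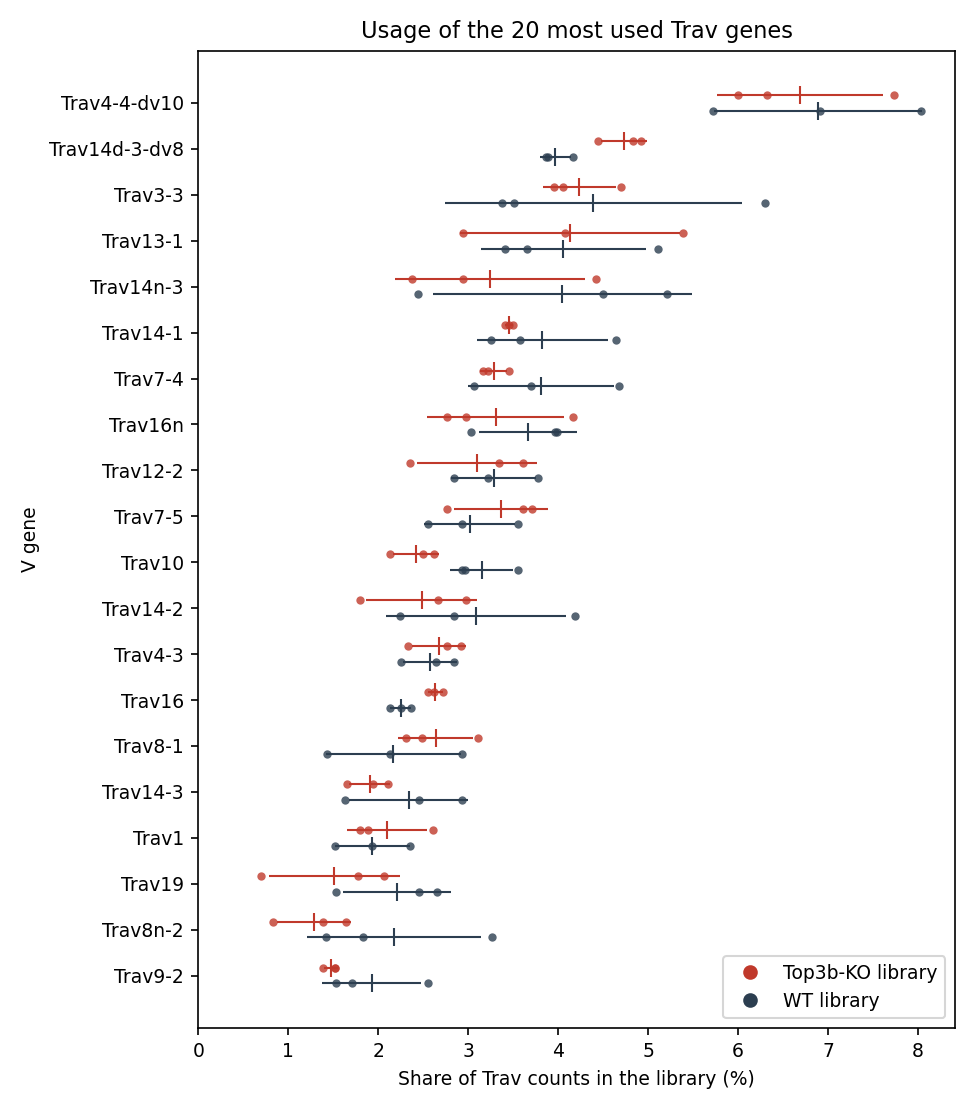
Share of Trav counts, in percent, of the 20 most used Trav genes, drawn as for the beta chain, with Top3b-KO above WT in each row. Trav14d-3-dv8 and Trav16 have their Top3b-KO points above their WT points, Trav10 and Trav9-2 have them below, and the others overlap.

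The d copies together, 40 genes of which 18 had counts, held 14.2%, 14.2% and 14.4% of Trav counts in Top3b-KO libraries, against 12.1%, 12.6% and 12.4% in WT libraries. The groups did not overlap (exact permutation p = 0.1). The difference was 1.92 percentage points, and Trav14d-3-dv8, a member of this set, alone differed by 0.765. The separation of that gene was not present in the sum of its copies, as given above. The n copies, 34 genes of which 16 had counts, overlapped, at 13.3%, 13.8% and 17.0% in Top3b-KO libraries and 18.4%, 15.1% and 14.1% in WT libraries. Genes without either letter, 56 in number, held 68.6% to 73.5% in every library. The 15 Trav genes called pseudogenes by both annotations held 0.790%, 1.00% and 0.967% in Top3b-KO libraries, against 0.715%, 0.473% and 0.508% in WT libraries, also without overlap (exact permutation p = 0.1). These shares rested on 13, 18 and 7 counts in Top3b-KO libraries, against 7, 5 and 5 in WT libraries. The 12 such Trbv genes overlapped, at 0.326% ± 0.176 of Trbv counts in Top3b-KO libraries and 0.444% ± 0.155 in WT libraries (SD, n = 3 each).

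The breadth of usage was described by the effective number of V genes, the number of equally used genes that would give the same Shannon entropy. For Trav it was 49.4, 50.6 and 48.1 in Top3b-KO libraries, against 47.2, 48.0 and 46.1 in WT libraries. These values rested on unequal Trav totals, 1645, 1799 and 724 counts in Top3b-KO libraries, against 979, 1056 and 984 in WT libraries. The groups just separated, by 2.26 on average (exact permutation p = 0.1), and Top3b-KO replicate 3 lay next to WT replicate 2. With the d and n copies summed the difference was 0.78 (exact permutation p = 0.4), so it was not seen beyond the spread once copies were pooled. The number of Trav genes with a count was 79, 79 and 76 in Top3b-KO libraries, against 70, 73 and 72 in WT libraries, and 71.0, 71.4 and 76.0 against 68.3, 70.7 and 69.9 when each library was brought to the smallest Trav total of 724 counts. For Trbv the effective number was 15.3, 15.1 and 15.4 in Top3b-KO libraries, against 14.7, 15.0 and 15.3 in WT libraries, which overlapped (exact permutation p = 0.4). The inverse Simpson number, which weighs the most used genes more, gave the opposite picture of overlap. For Trav it overlapped, at 38.9, 39.8 and 35.3 in Top3b-KO libraries and 37.1, 36.6 and 34.0 in WT libraries (exact permutation p = 0.3). For Trbv it did not, at 12.4, 12.1 and 12.4 in Top3b-KO libraries and 11.6, 11.96 and 11.98 in WT libraries (exact permutation p = 0.1).

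No separation of whole usage profiles by genotype was detected, by an exact permutation test whose p cannot fall under 0.1. The Bray-Curtis distance of Trbv shares, which runs between 0 for equal profiles and 1 for profiles with no gene in common, was 0.059 to 0.066 among Top3b-KO libraries and 0.056 to 0.102 among WT libraries. Between genotypes it was 0.045 to 0.10 (one-sided exact permutation p = 0.9). For Trav it was 0.122 to 0.179 among Top3b-KO libraries and 0.149 to 0.187 among WT libraries, and 0.136 to 0.193 between genotypes (one-sided exact permutation p = 0.7). No library pair was a duplicate, since over all genes their counts differed by more than sampling noise, with chi-square per degree of freedom of 3.38 to 8.63. Over V genes it was lower. For Trav it was 1.03 to 1.69 between genotypes, 1.39 to 1.56 among Top3b-KO libraries and 1.22 to 1.59 among WT libraries. For Trbv these were 0.706 to 3.03, 0.972 to 1.89 and 0.937 to 2.60. Differences in usage between libraries were thus nearer to sampling noise than those over all genes.

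Single V genes were compared in the fit over all 18716 genes, in which 58 V genes passed the low-count filter (37 Trav, 18 Trbv, 2 Trgv and 1 Trdv). The tested members held 83.4% of Trav and 98.4% of Trbv counts, and 67 others had counts too low to test. None of the 58 passed adjusted p 0.05 by edgeR, where 0.0107% of all tested genes did (0.00534% higher and 0.00534% lower). At an unadjusted p under 0.05 there were 2, both higher in Top3b-KO, where 5.52% of all tested genes lay (1.83% higher and 3.69% lower). DESeq2 called 0 at either threshold, and limma-voom called 0 adjusted and 2 unadjusted. CPM did not overlap for 3 members (5.17%), all above WT: Trav13n-1, Trav14d-3-dv8 and Trav16. Of all tested genes, 5.39% lay above WT and 5.63% below without overlap.

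Trav13n-1, an n copy, had 0.983, 0.673 and 0.708 CPM in Top3b-KO libraries, against 0.258, 0.590 and 0.314 CPM in WT libraries. Top3b-KO was above WT without overlap, and the log2 fold change was 1.04 (SE 0.431, adjusted p = 0.857 by edgeR). Summed over Trav13-1, Trav13d-1 and Trav13n-1, the log2 fold change was 0.17 (SE 0.214). Trbv3 had 6.64, 9.51 and 7.38 CPM in Top3b-KO libraries, against 5.49, 5.51 and 7.29 CPM in WT libraries. WT replicate 3 lay inside the Top3b-KO range, and the log2 fold change was 0.37 (SE 0.17, adjusted p = 0.886 by edgeR).

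Trav15-1-dv6-1 had 1.88, 1.11 and 0.708 CPM in Top3b-KO libraries, against 0.710, 0.787 and 0.880 CPM in WT libraries, with Top3b-KO replicate 1 highest and Top3b-KO replicate 3 lowest. Its log2 fold change was 0.73 (SE 0.356), and 0.30 without Top3b-KO replicate 1. Trbv13-3 and Trav14d-3-dv8 completed the 5 smallest p-values on the higher side, with log2 fold changes of 0.31 (SE 0.154) and 0.36 (SE 0.199). On the lower side Trav8n-2 came first, with 1.11, 0.594 and 1.01 CPM in Top3b-KO libraries and 2.07, 0.983 and 1.13 CPM in WT libraries. Its groups overlapped, WT replicate 1 was the highest library, and the log2 fold change was -0.66 (SE 0.357, adjusted p = 0.915 by edgeR). It was -0.26 without WT replicate 1, and -0.07 (SE 0.214) for the sum of Trav8-2, Trav8d-2 and Trav8n-2. Trav10, Trav14n-3, Trav19 and Trav9-2 followed, with log2 fold changes between -0.31 and -0.27. Without WT replicate 2 that of Trav14n-3 was -0.0032, and without WT replicate 1 that of Trav9-2 was -0.044.

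Over the 58 tested members the log2 fold changes ran between -0.66 and 1.04 with a median of 0.10, and 44 lay above 0. Over all tested genes the median was -0.0029 and 49.1% lay above 0. When libraries were scaled by 7 T cell genes (the 4 CD3 chains, Trac, Trbc1 and Trbc2) in place of all genes, 31 of the 58 lay above 0, with a median of 0.03 for the members and -0.08 for all genes. Markers of T cells lay the same way, 11 of 15 above 0 with a median of 0.06. Of the B cell, natural killer cell, dendritic cell and erythroid markers, 0 of 6, 0 of 5, 0 of 4 and 0 of 5 lay above 0, with medians of -0.05, -0.14, -0.18 and -0.38. Plasma cell, monocyte and macrophage, neutrophil and thymocyte lists had 0 of 4, 0 of 5, 1 of 4 and 1 of 3 above 0. Among T cell subsets these were 2 of 3 for CD4, 2 of 3 for CD8, 4 of 7 for gamma delta T cells and 2 of 4 for invariant natural killer T cells. No marker of these lists passed adjusted p 0.05. Erythroid markers, the most shifted, summed to 780 to 1121 CPM in Top3b-KO libraries and 957 to 1660 CPM in WT libraries. The part of cell makeup in the V gene shift was not tested. The scaling by T cell genes cannot separate it from receptor RNA per T cell, since Trac, Trbc1 and Trbc2 are parts of the same receptor RNA. The 7 scaling genes are also among the 15 T cell markers. Standard errors of the members ran between 0.104 and 0.469, so small changes of the less counted genes were not detectable at this depth.

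**Figure D5:**
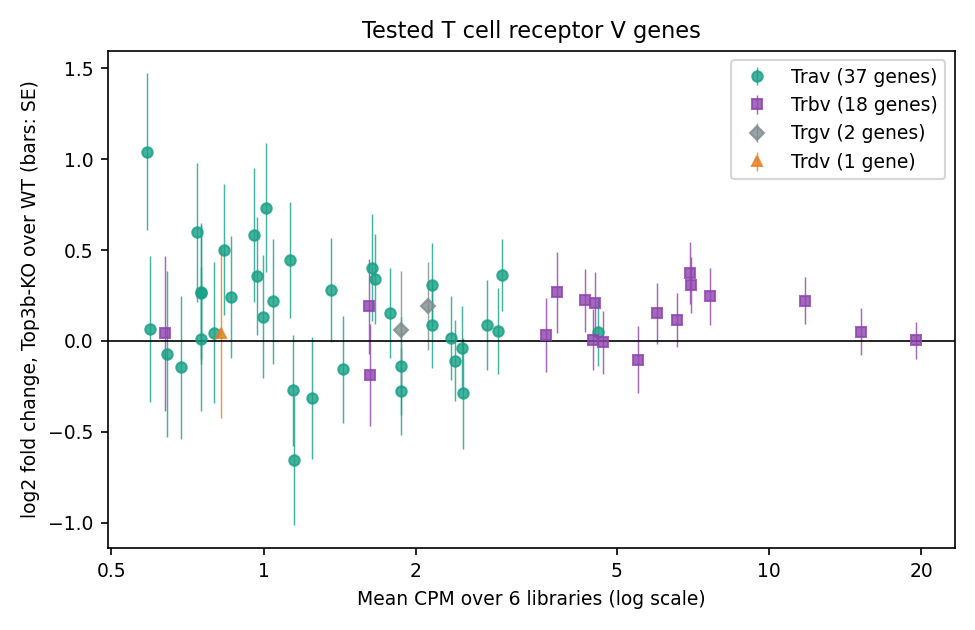
Log2 fold change of the 58 tested V genes, Top3b-KO over WT, against their mean CPM over 6 libraries on a log scale. Bars are the standard error worked back from the F statistic of the fit, and colours and shapes give the chain. Trbv genes at the right lie within 0.37 of 0, and the spread widens toward low CPM, where Trav13n-1 (1.04) and Trav8n-2 (-0.66) lie at the extremes.

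The remaining abundant members had small fold changes and overlapping groups. On the log2 scale they were 0.05 for Trbv16, 0.22 for Trbv29, 0.25 for Trbv2, 0.12 for Trbv12-2 and 0.15 for Trbv20. In the alpha chain they were 0.05 for Trav4-4-dv10, 0.05 for Trav3-3, 0.09 for Trav13-1, -0.04 for Trav14-1, -0.11 for Trav7-4, 0.02 for Trav16n, 0.31 for Trav7-5 and 0.09 for Trav12-2. The largest of these relative to its error, Trbv29, had a standard error of 0.129.

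The gamma chain was dominated by Trgv1 and Trgv2. Trgv1 held 42.3%, 50% and 48.6% of Trgv counts in Top3b-KO libraries, against 51.1%, 40.2% and 48.6% in WT libraries, with a log2 fold change of its level of 0.19 (SE 0.244). Trgv2 held 46.5%, 34.9% and 31.4% in Top3b-KO libraries, against 40.0%, 48.3% and 37.8% in WT libraries, with a log2 fold change of 0.06 (SE 0.321). Which of the pair came first differed between libraries in both genotypes.

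The other Trgv genes were too low to test. Trgv4 had 0.328, 0.436 and 0.202 CPM in Top3b-KO libraries, against 0.129, 0.131 and 0.251 CPM in WT libraries, which overlapped. Its share of Trgv counts did not, at 5.63%, 8.73% and 5.71% in Top3b-KO libraries and 4.44%, 2.30% and 5.41% in WT libraries. These shares rested on 29 counts of Trgv4 over the 6 libraries. The Trgv totals were 142, 126 and 35 counts in Top3b-KO libraries, against 45, 87 and 74 in WT libraries. Trgv7 had 0.205, 0.158 and 0.202 CPM in Top3b-KO libraries, against 0.065, 0 and 0.063 CPM in WT libraries, without overlap. These were 5, 4 and 2 counts in Top3b-KO libraries and 1, 0 and 1 counts in WT libraries. Among gamma constant genes, Trgc2 had 10.3, 10.9 and 9.10 CPM in Top3b-KO libraries, against 9.04, 8.13 and 6.35 CPM in WT libraries. These did not overlap, the log2 fold change was 0.38 (SE 0.145, adjusted p = 0.829 by edgeR), and those of Trgc1 and Trgc4 were 0.03 and 0.07.

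Delta chain counts were few, between 22 and 45 per library. Trdv4 held 66.7%, 35.3% and 36.4% of them in Top3b-KO libraries, against 55.6%, 14.8% and 45.2% in WT libraries. Trdv5 held 22.2%, 26.5% and 22.7% in Top3b-KO libraries, against 22.2%, 59.3% and 38.7% in WT libraries, and together with Trdv1 the 3 genes held 90.3% to 100% of Trdv counts. The shares overlapped for each of them. In CPM Trdv5 lay below WT without overlap, at 0.410, 0.356 and 0.506 in Top3b-KO libraries and 0.517, 1.05 and 0.754 in WT libraries, too low to test. Of the 100-base stretches of Trdv5, 68.1% were its own, and it shared sequence with Trdc, so its counts and share are less certain. Segments with dv in the symbol, which can also join to delta, were counted under Trav and held 14.4% to 20.2% of Trav counts.

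The V segments of invariant receptors were examined whatever their level. In mice, invariant natural killer T cells use Trav11 joined to Traj18, and mucosal-associated invariant T cells use Trav1. The 3 Trav11 copies are alike in sequence, and whether this bears on their counts was not tested. Trav11d is identical to Trav11 over all of its 342 bases, while Trav11n, a pseudogene in GENCODE M21 but not in RefSeq, differs from Trav11 at 8 bases, given in capitals in the first 300 bases of each below. 1 of these differences gives an in-frame TAG stop codon in Trav11n at base 136 of the segment.
Trav11: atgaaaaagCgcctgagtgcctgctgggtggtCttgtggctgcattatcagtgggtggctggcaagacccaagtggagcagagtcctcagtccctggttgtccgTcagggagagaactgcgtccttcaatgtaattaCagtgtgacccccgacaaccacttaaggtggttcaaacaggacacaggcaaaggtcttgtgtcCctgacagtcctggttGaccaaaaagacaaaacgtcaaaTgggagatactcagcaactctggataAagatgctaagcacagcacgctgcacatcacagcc
Trav11n: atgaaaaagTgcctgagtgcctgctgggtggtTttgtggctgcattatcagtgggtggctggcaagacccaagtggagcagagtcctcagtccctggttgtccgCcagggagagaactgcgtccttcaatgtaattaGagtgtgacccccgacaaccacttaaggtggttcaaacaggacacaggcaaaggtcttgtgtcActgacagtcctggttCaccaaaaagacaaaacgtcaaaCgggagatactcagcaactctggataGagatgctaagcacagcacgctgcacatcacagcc

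Trav11 was listed at 0 in every library and Trav11d had 1 count, in Top3b-KO replicate 2. Trav11n, which has sequence of its own, had 4, 2 and 1 counts in Top3b-KO libraries and 6, 0 and 1 counts in WT libraries. Traj18, by contrast, had 168, 150 and 55 counts in Top3b-KO libraries, against 101, 82 and 82 in WT libraries, a log2 fold change of 0.13 (SE 0.159). The zero of Trav11 stood beside counts of Traj18 in every library. Whether the Traj18 counts came from receptors with Trav11 was not tested. Trav1, all of whose 100-base stretches are its own, had 1.27, 1.86 and 1.32 CPM in Top3b-KO libraries, against 1.49, 1.05 and 1.19 CPM in WT libraries, which overlapped (log2 fold change 0.28, SE 0.287).

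The genes that carry or make the receptor gave no adjusted call either. Of the CD3 chains, which anchor the receptor and pass on its signal, Cd3e had 176, 177 and 168 CPM in Top3b-KO libraries, against 160, 149 and 154 CPM in WT libraries. These groups did not overlap, and the log2 fold change was 0.17 (SE 0.063, adjusted p = 0.829 by edgeR). Cd3d, Cd3g and Cd247 had log2 fold changes of 0.01, 0.06 and 0.09. Of the genes that cut and join V segments or act at that step, Rag1 had 1.39, 1.23 and 1.52 CPM in Top3b-KO libraries, against 1.16, 1.97 and 2.76 CPM in WT libraries (log2 fold change -0.54, SE 0.298), and Dntt, which adds bases at the joins, had a log2 fold change of 0.18. Rag2 and Ptcra, the partner of an early beta chain, had too few counts to test.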

How the data were processed

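RNA was sequenced in 3 Top3b-KO and 3 WT splenocyte libraries. The authors deposited expected counts by gene symbol, made from reads aligned with STAR to mm39, per the submitters' processing notes. The counter, its annotation and strand setting, and which of the library kits and read lengths named in the labels each library had are not stated in the sources used here. Of 56413 symbols 72 had values not whole within 1e-06, none of them a V gene. Values were rounded, and each library held 9941014 to 25473404 counts.

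Genes kept by filterByExpr (18716) were tested with edgeR 4.0.16 in R 4.3.3: TMM factors, robust quasi-likelihood F test, genotype as the only term, two-sided, Benjamini-Hochberg adjustment over all tested genes, threshold 0.05. CPM use the TMM factors. The SE of a log2 fold change is its absolute value divided by the square root of the F statistic. Chain sums replaced the members in a second fit over 18662 features. Shares, effective numbers, ratios and distances were compared by exact permutation over the 6 libraries, which cannot give a two-sided p under 0.1. The one-sided p of distances has the same floor, because swapping the genotype labels leaves the statistic as it is. Alternatives used DESeq2 1.42.0 and limma 3.58.1, other scalings and filters, a replicate block and each library left out. The test was checked on simulated counts.

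The members, lists, tests and naming rule were chosen with earlier results of these data known. Named were the 10, 8, 4 and 3 most abundant Trav, Trbv, Trgv and Trdv genes, the 5 smallest p-values in each direction, Trav1, Trav11, Trav11d, and the constant, CD3, recombination and T cell marker genes. Other genes, the ratios to constant genes, the d, n and dv sets, the summed top shares and their ranking by total count, the sequence comparison, and the rule that a pseudogene is one so called by both RefSeq and GENCODE M21 (28 genes; the annotations disagree on 8) were chosen after values were seen. Sequences and stretches come from GENCODE M21 transcripts (GRCm38; 170 of 178 symbols matched), searched on both strands. That build is not mm39, so no positions are printed. The labels do not state that replicate numbers pair libraries. Libraries sharing a number had deviations that correlated at 0.18, -0.01 and 0.01. Libraries with unlike numbers were not compared, so these values do not settle whether the numbers pair libraries.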

Additional observations from a re-analysis of the deposited data

How the results depend on the processing

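No V gene passed adjusted p 0.05 under any of the 16 alternatives, among which the smallest adjusted p of a member was 0.214 (Trbv3, without WT replicate 3). Members higher at an unadjusted p under 0.05, 2 in the reported fit, numbered 1 with T cell scaling, 6 of 125 with no filter, 1 of 42 with at least 1 CPM in 3 libraries, 0 with DESeq2, and 1 to 4 when a library was left out (1 without WT replicate 3 or Top3b-KO replicate 1, 4 without Top3b-KO replicate 3). Lower members then numbered 0 to 1. All genes called numbered 2, against 44 with no filter, 41 with the replicate block, 32 without WT replicate 3, 9 without Top3b-KO replicate 1, 6 with DESeq2, 3 with T cell scaling, and 1 with limma-voom or without WT replicate 1, WT replicate 2 or Top3b-KO replicate 2. Whether replicate numbers pair the libraries was not settled. With the block 0 members passed and 2 were higher unadjusted.

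Log2 fold changes near 0 changed sign: Trbv13-2 to -0.0093 with total count scaling, and, with T cell scaling, Trav4-4-dv10 to -0.026, Trav3-3 to -0.022, Trav16n to -0.061, Trbv13-2 to -0.071, Trbv16 to -0.024, Trgv2 to -0.017 and Trdv4 to -0.023. With the replicate block Trav16n was at -0.0026. Leaving out a library in turn gave -0.043 to 0.19 for Trav12-2, -0.11 to 0.30 for Trav13-1, -0.17 to 0.18 for Trav14-1, -0.22 to 0.16 for Trav16n, -0.12 to 0.36 for Trav3-3, -0.085 to 0.13 for Trav4-4-dv10, -0.26 to 0.024 for Trav7-4, -0.058 to 0.068 for Trbv13-2, -0.090 to 0.18 for Trbv16, -0.0059 to 0.28 for Trbv20, -0.46 to 0.54 for Trdv4, -0.30 to 0.43 for Trgv2 and -0.061 to 0.39 for the Trgv sum. Without a sign change, Trav15-1-dv6-1 ran between 0.30 and 0.91, Trav8n-2 between -0.91 and -0.26, Trav14n-3 between -0.58 and -0.0032, and Trav9-2 between -0.44 and -0.044. The cause was not tested.

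The difference in the effective number of Trav genes, 2.26, was 0.78 with copies summed and 0.36 over V families, and 1.64 to 2.92 without a library. Over all 12 alternatives, among them thinning each library to the smallest Trav total, it ran between 0.36 and 2.92. The share difference of Trav14d-3-dv8 was -0.47 percentage points with copies summed, and that of Trbv13-2 was -0.46 over the family. Thinning was not run for shares, since it leaves their expected value as it is. Trgv and Trdv counts were few, and copies without sequence of their own cannot be separated.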
